A study of Mus musculus with 20 samples.

Results

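Gm10800 and Gm10801 are neighbouring predicted genes of mouse chromosome 2, with stretches of sequence that resemble satellite repeats. They were taken by name and were 2 of the 25655 genes in the deposited count tables. The pair was chosen by a measured value, the higher counts of Gm10800 in OVX + E2 than in OVX + v, so the values of the estradiol libraries that follow are a description and carry no test. The table pairs Gm10800 with ENSMUSG00000075014 and Gm10801 with ENSMUSG00000075015.

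RNA was taken from the utricle, a balance organ of the inner ear, of female mice of the C57BL/6J strain that were 8 weeks old at the operation. There were 4 groups of 5 libraries each, taken 4 weeks after the operation. The sham + v group had a sham operation and a vehicle pellet, and the OVX + v group had its ovaries removed and a vehicle pellet. Mice of OVX + E2 and of OVX + RAL were ovariectomized and carried a pellet releasing 50 µg of estradiol or 2.4 mg of raloxifene, a selective modulator of the estrogen receptor, over 60 days. Replicates keep the library numbers of the labels, 1 to 5 in sham + v, 6 to 10 in OVX + v, 11 to 15 in OVX + E2 and 16 to 20 in OVX + RAL. Nothing in the labels says that each library is 1 animal, so the spread between these libraries may be technical. Exact permutation p-values rest on the libraries of the gene itself. The p-values and standard errors (SE) of edgeR draw on a spread shared across genes and can be smaller. For Gm10800 in sham + v against OVX + v, the unadjusted p was 0.0630 by edgeR and 0.262 by the exact permutation test.

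Satellite DNA is made of short units repeated head to tail. The major satellite of the mouse lies beside the centromeres, is rich in A and T, and is packed into heterochromatin, the compact form of chromatin marked by methylated histones. Its transcripts are non-coding and are known from early development and from stressed cells.

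Per the coordinates in the deposited tables (GRCm39), Gm10800 spans chr2:98496892-98497646 on the minus strand, 755 bases, and Gm10801 spans chr2:98492582-98494428 on the plus strand, 1847 bases. The genes lie 2463 bases apart on opposite strands that point toward each other. The nearest genes of the table with a count were Lrrc4c, which codes for a synaptic adhesion protein, at 1030570 bases, and Iftap at 2893479 bases. In the GENCODE vM39 annotation of the same build, the lncRNA Gm75297 covers all 755 bases of Gm10800 on the same strand, and its exons overlap 659 of them. Exons of Gm75297 and of the lncRNA Gm75300 overlap 137 and 280 bases of Gm10801 on the opposite strand. The sources used here do not state whether reads were counted by strand, so reads of these overlapping transcripts cannot be told apart from those of the pair. The exon structure of the pair was not used here, and the sequences below are of the genomic span.

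The repeat unit is visible in the sequence of Gm10800. Shifted by 234 bases against itself, which is the length of the major satellite unit, the gene matched at 67.2% of its bases, and no other shift from 20 to 376 bases matched as well. The block of bases 1 to 234 was 97.9% equal to the block from base 486, and the blocks of bases 235 to 468 and 469 to 702 were each 86.3% equal to their best match, at bases 469 and 235. Over its whole length Gm10801 showed no such tandem repeat, since its best shift, of 58 bases, matched at 37.3%, although its start shares sequence with the unit. Both genes were rich in T on the strand of the gene, with 46.2% T and 18.1% A in Gm10800 and 39.7% T and 23.9% A in Gm10801. The GC content was 35.6% and 36.3%.

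To show what the pair shares, a unit of Gm10800 (chr2:98497052-98497285, minus strand), the start of Gm10801 (chr2:98492583-98492738, plus strand) and the matching unit of Gm10717, a satellite-like predicted gene of chromosome 9 (chr9:3032429-3032662, plus strand), are printed from GRCm39, each 5′ to 3′ on the strand of its gene. Capitals mark the 86 bases that are identical in Gm10800 and Gm10801, the longest run they share, and in Gm10717 the 12 bases that differ from the Gm10800 unit.
Gm10800: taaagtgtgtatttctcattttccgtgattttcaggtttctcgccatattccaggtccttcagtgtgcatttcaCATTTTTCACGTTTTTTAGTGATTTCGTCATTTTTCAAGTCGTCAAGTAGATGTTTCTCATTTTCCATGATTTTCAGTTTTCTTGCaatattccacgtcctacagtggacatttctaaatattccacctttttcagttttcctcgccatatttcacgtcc
Gm10801: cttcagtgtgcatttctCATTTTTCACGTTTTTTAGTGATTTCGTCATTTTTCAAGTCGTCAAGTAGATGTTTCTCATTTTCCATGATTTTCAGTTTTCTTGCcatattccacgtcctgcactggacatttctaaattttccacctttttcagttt
Gm10717: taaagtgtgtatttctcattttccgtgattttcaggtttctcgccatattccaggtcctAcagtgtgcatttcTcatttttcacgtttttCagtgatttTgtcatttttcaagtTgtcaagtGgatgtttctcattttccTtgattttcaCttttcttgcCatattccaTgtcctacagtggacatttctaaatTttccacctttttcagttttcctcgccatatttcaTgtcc
The unit of Gm10717 was 94.9% equal to that of Gm10800.

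A read of 75 cycles trimmed of its first 12 bases is at most 63 bases long, and 63-base windows of the pair were therefore looked up in the whole genome on both strands. Of the 693 windows of Gm10800, 486 (70.1%) occurred once in the genome and 207 (29.9%) more than once, with up to 60 copies. Of the 1785 windows of Gm10801, 1205 (67.5%) occurred once and 580 (32.5%) more than once, with up to 22 copies. At least 10 copies were found for 83 windows of Gm10800 (11.98%) and 10 of Gm10801 (0.560%). Over the whole span, most windows of both genes were thus unique when matched exactly. Reads of this protocol come from the 3′ ends of transcripts, however, and at the 3′ end of Gm10800 windows 687 to 693 had 6 to 60 copies.

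With up to 2 mismatches allowed, the picture differed between the genes. In Gm10800, 411 windows (59.3%) then matched within Gm10801, and 476 (68.7%) matched within 9 satellite-like genes of chromosome 9, compared with 43 (6.20%) and 110 (15.9%) for exact matches. In Gm10801, 251 windows (14.1%) matched Gm10800 and 298 (16.7%) the chromosome 9 genes. Outside the gene itself, exact copies of Gm10800 windows lay mainly on chromosome 9 (774 matches) and on an unplaced scaffold (533), with 46 elsewhere on chromosome 2. Those of Gm10801 lay mainly on chromosome 19 (493 matches) and chromosome 9 (115), with 59 elsewhere on chromosome 2. How the authors treated reads that match several places is not given in the sources used here, so counts of these genes are uncertain wherever windows are shared.

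**Figure D1:**
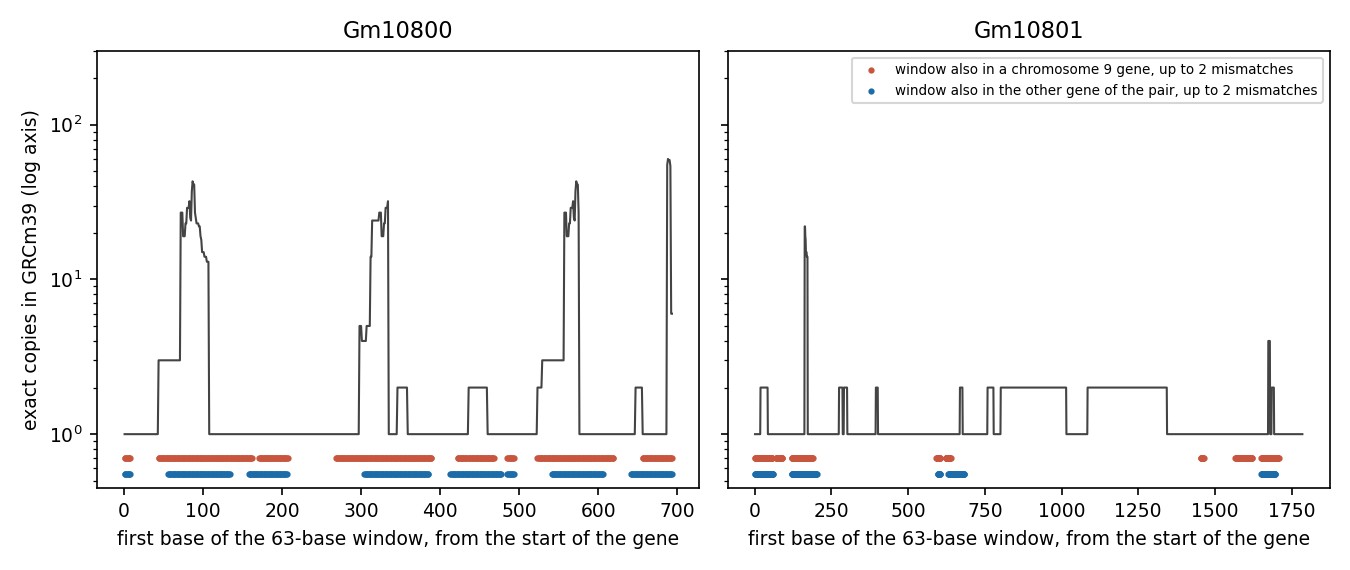
Exact copies in the GRCm39 genome (log axis) of each 63-base window along Gm10800 (left) and Gm10801 (right), counted from the 5′ end of the gene. Red and blue dots under the lines mark windows that also occur, with up to 2 mismatches, in the chromosome 9 genes and in the other gene of the pair. Windows of many copies, up to 60, are spread along Gm10800, and the red dots cover 68.7% of the windows of Gm10800 and 16.7% of those of Gm10801.

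The libraries held 1123053 to 2081747 counts, and 6530 to 10143 genes reached 3 counts. The OVX + E2 group had the lowest mean total, with totals of 1123053 to 1507667 and 6530 to 8907 detected genes, against 9381 to 9929 genes in OVX + v, 9477 to 9782 in OVX + RAL and 8087 to 10143 in sham + v. Hair cell markers, which define the sensory cells of the utricle, summed to 1259 to 2940 CPM (counts scaled to a library total of 1e6), and 8 of these 10 genes had a count in every library. In bulk RNA, a change in the number of cells of a type and a change in RNA per cell cannot be told apart.

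Gm10800 had at least 213 counts in each library, and its mean level of 468 CPM placed it at rank 248 of 25655 genes by counts. Gm10801 had a mean of 54.9 CPM and rank 3336, and 19 of 20 libraries held 3 counts or more of it. Per kilobase of span, the mean levels were 620 CPM for Gm10800 and 29.7 CPM for Gm10801, although reads of this protocol come from the 3′ ends of transcripts and need not scale with length.

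In the sham + v group, the level of Gm10800 was 178, 428, 321, 440 and 812 CPM in replicates 1 to 5, respectively. In the OVX + v group it was 459, 270, 164, 163 and 421 CPM in replicates 6 to 10. These groups overlapped, and replicate 5 was the only sham + v library above every OVX + v library. In the OVX + E2 group, the levels were 941, 994, 1336, 1037 and 224 CPM in replicates 11 to 15. In the OVX + RAL group, they were 598, 131, 139, 203 and 102 CPM in replicates 16 to 20. Replicates 11 to 14 of OVX + E2 were above each of the 15 libraries of the other groups, whereas replicate 15 lay among them. Of all genes with enough counts, 0.168% had at least 4 OVX + E2 libraries above these 15 libraries; against the OVX + v group alone the share was 1.55%, against sham + v 1.45% and against OVX + RAL 1.74%. Replicate 16 of OVX + RAL stood apart from its group at 598 CPM, the others being at most 203 CPM.

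The means of Gm10800 were 906 ± 411, 235 ± 206, 436 ± 235 and 296 ± 139 CPM (SD, n = 5 each) in OVX + E2, OVX + RAL, sham + v and OVX + v, respectively. The order of the means was OVX + E2, sham + v, OVX + v and OVX + RAL, and neighbours among the last 3 differed by less than the larger of their SDs. Counting error was 2.45% to 6.85% of the count in each library, so the spread between replicates of a group was far above it.

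Gm10801 was lower and more scattered. In the sham + v group it had 17.5, 41.5, 72.3, 16.2 and 61.0 CPM in replicates 1 to 5, and in the OVX + v group 78.5, 18.8, 31.7, 34.2 and 60.6 CPM in replicates 6 to 10. In the OVX + E2 group it had 60.4, 55.1, 295, 121 and 5.61 CPM in replicates 11 to 15. In the OVX + RAL group it had 28.3, 21.5, 64.0, 1.05 and 13.5 CPM in replicates 16 to 20, the value of replicate 19 resting on 2 counts. All 4 groups overlapped, and only replicates 13 and 14 of OVX + E2 were above every library of each other group. The means were 107 ± 113, 25.7 ± 23.7, 41.7 ± 25.2 and 44.8 ± 24.2 CPM (SD, n = 5 each) in OVX + E2, OVX + RAL, sham + v and OVX + v, respectively, and the replicate SD was as large as the mean in OVX + E2. OVX + E2 replicate 13 was the highest library and replicate 15 the second lowest of all 20, and replicate 15 was also the lowest of its group for Gm10800.

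**Figure D2:**
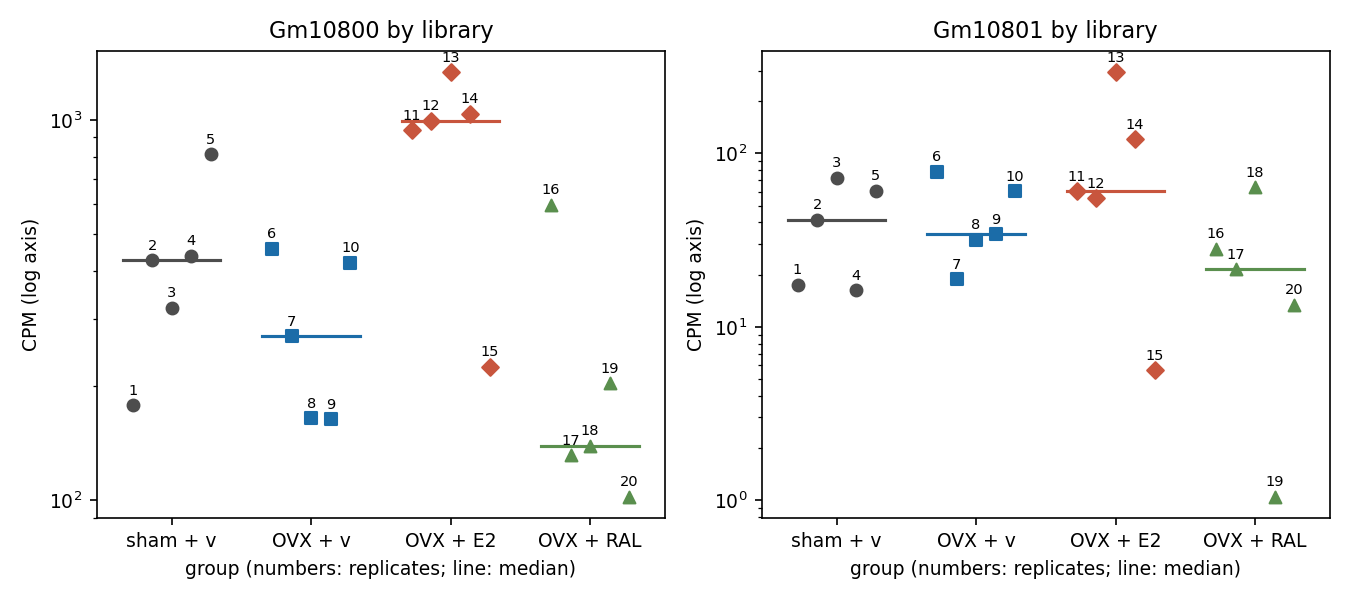
Level of Gm10800 (left) and Gm10801 (right) in CPM (log axis) in each of the 20 libraries, by group. Points are libraries labelled with their replicate number and lines are group medians. Replicates 11 to 14 of OVX + E2 lie above all other libraries for Gm10800, at 941 to 1336 CPM, whereas replicate 15 lies at 224 CPM. For Gm10801 the groups overlap.

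The fold changes of the estradiol group are given without a test. Against OVX + v, the log2 fold change of Gm10800 fitted by edgeR was 1.62 (SE 0.277), a fold of 3.07, and that of Gm10801 was 1.26 (SE 0.816), a fold of 2.40. In this comparison 0.0584% of all genes tested passed an adjusted p of 0.05. Without replicate 15 the log2 fold changes were 1.87 and 1.57, and without replicate 13 they were 1.43 and 0.43, so that 1 library carried much of the value of Gm10801. With limma on log2(CPM + 1) and log2(CPM + 0.1) the value of Gm10801 was 0.58 and 0.56, and in OVX + E2 against sham + v it was 0.75 and 0.74. Against OVX + RAL they were 1.95 (SE 0.311) for Gm10800 and 2.06 (SE 0.916) for Gm10801, where 0.0727% of genes passed. Against sham + v they were 1.06 (SE 0.282) and 1.36 (SE 0.903), where 0.0222% passed. Gm10801 was at 1.24 and 0.54 in these comparisons without replicate 13, and Gm10800 against OVX + RAL was 2.65 without OVX + RAL replicate 16 and Gm10801 2.73 without OVX + RAL replicate 18. With TMM factors, which scale libraries by the bulk of their genes, the median log2 fold change of all genes moved from -0.06 to -0.17 against OVX + v and from -0.01 to -0.16 against OVX + RAL, and that of Gm10800 from 1.62 to 1.499 and from 1.95 to 1.75.

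The comparisons between the other groups were tested, although the OVX + v libraries were also those of the contrast for which the pair was chosen. Ovariectomy was addressed by sham + v against OVX + v. The log2 fold change of Gm10800 was 0.56 (SE 0.301, adjusted p = 0.487, quasi-likelihood F test of edgeR, adjusted by Benjamini-Hochberg), and that of Gm10801 was -0.10 (SE 0.971, adjusted p = 1.00). Neither gene passed the threshold, and 0.0145% of all genes did. An exact two-sided permutation test on log2(CPM + 1) over all 252 groupings of the libraries gave p = 0.262 for Gm10800 and p = 0.794 for Gm10801, where 0.00794 was the smallest p possible. Without sham + v replicate 5 the log2 fold change of Gm10800 was 0.21.

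Raloxifene was addressed by OVX + RAL against OVX + v. The log2 fold change of Gm10800 was -0.33 (SE 0.333, adjusted p = 1.00 by edgeR) and that of Gm10801 was -0.80 (SE 0.979, adjusted p = 1.00). Neither passed, where 0.0286% of all genes did, and the exact permutation p-values were 0.365 and 0.175. Without OVX + RAL replicate 16 the log2 fold change of Gm10800 was -1.04 (adjusted p = 0.551 by edgeR) and that of the summed pair -1.01, and without replicate 18 that of Gm10801 was -1.47.

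The call of Gm10800 in OVX + RAL against sham + v depended on 1 library. With all libraries the log2 fold change was -0.89 (SE 0.338, adjusted p = 0.358 by edgeR), not past the threshold that 0.0648% of all genes passed, and the exact permutation p was 0.127. Without OVX + RAL replicate 16 it was -1.60 (SE 0.353, adjusted p = 0.00812 by edgeR), where 0.0877% of all genes passed. Over all alternatives the adjusted p of this comparison lay between 0.00812 and 1.00. Gm10801 had a log2 fold change of -0.70 (SE 1.14, adjusted p = 1.00 by edgeR) and an exact permutation p of 0.294, and was at -1.37 without OVX + RAL replicate 18. After adjustment over the 9 exact tests of the pair and its sum, the p-values were 0.420 to 0.794.

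**Figure D3:**
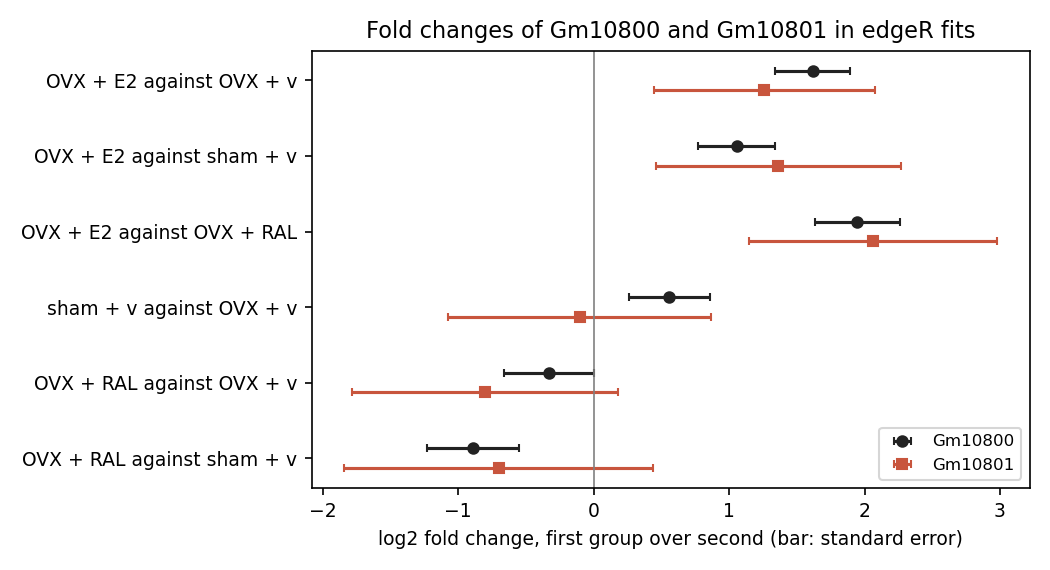
Log2 fold changes (first group over second) of Gm10800 and Gm10801 in edgeR fits of the 10 libraries of each comparison, with standard errors as bars. These errors draw on a spread shared across genes and do not give the spread of the libraries. The 3 upper comparisons include the estradiol group, for which the pair was chosen, and the 3 lower ones were tested and held no call for either gene. The bars of Gm10801 are wider in each comparison, with standard errors of 0.816 to 1.14 against 0.277 to 0.338.

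Since the genes share windows, their counts were also summed. The sum was 1014 ± 504, 261 ± 208, 478 ± 247 and 340 ± 160 CPM (SD, n = 5 each) in OVX + E2, OVX + RAL, sham + v and OVX + v, respectively, at most 0.163% of a library. The summed log2 fold change was 0.49 (adjusted p = 0.645 by edgeR) for sham + v against OVX + v, -0.39 (adjusted p = 1.00) for OVX + RAL against OVX + v and -0.87 (adjusted p = 0.358) for OVX + RAL against sham + v. Gm10800 gave most counts of the sum, and without OVX + RAL replicate 16, the last value was -1.50 (adjusted p = 0.0127 by edgeR). Against OVX + v, the sum in OVX + E2 had a log2 fold change of 1.57 (SE 0.262), given without a test.

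Gm10800 took between 68.5% and 99.5% of the summed counts of the pair, both in OVX + RAL. The share was 68.5% in OVX + RAL replicate 18 (Wilson 95% interval 63.4% to 73.2%) and 99.5% in replicate 19 (98.1% to 99.9%). These intervals cover counting error only. The group means were 91.5 ± 6.10%, 87.6 ± 11.96%, 90.7 ± 5.50% and 86.6 ± 4.26% (SD, n = 5 each) in OVX + E2, OVX + RAL, sham + v and OVX + v, respectively. The share thus varied between replicates by more than counting error, and no difference between the groups without estradiol passed an exact permutation test (p = 0.230, 0.873 and 0.667 for sham + v against OVX + v, OVX + RAL against OVX + v and OVX + RAL against sham + v, respectively, and 0.690 to 0.873 after adjustment).

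**Figure D4:**
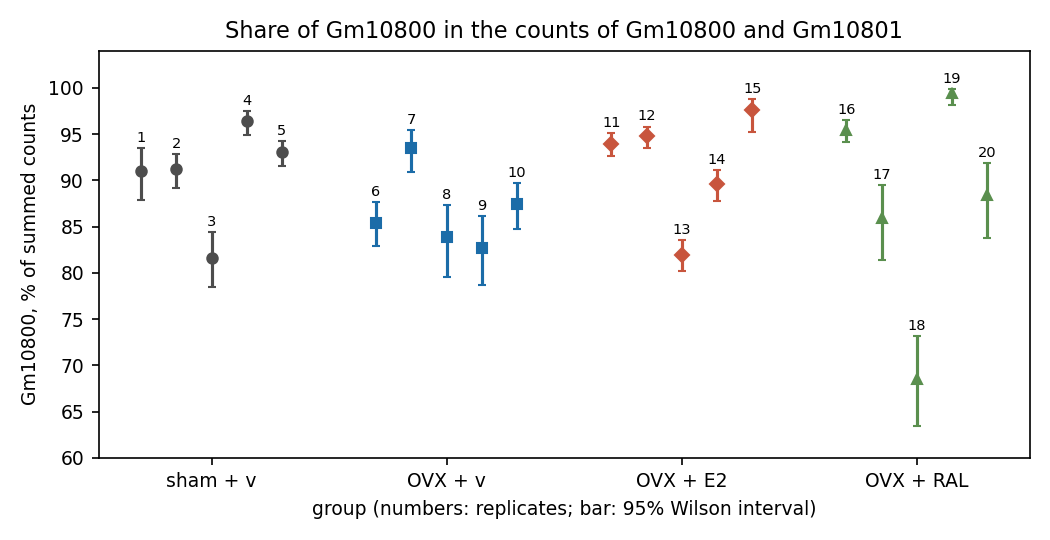
Share of Gm10800 in the summed counts of Gm10800 and Gm10801 (percent, axis from 60) in each library, with 95% Wilson intervals that cover counting error only. Libraries of 1 group lie apart by more than their intervals, from 68.5% in replicate 18 to 99.5% in replicate 19 of OVX + RAL.

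The level of Gm10800 was compared with the library total and with the number of genes that reached 3 counts. The 4 OVX + E2 libraries with the highest Gm10800 had 8200, 7682, 6776 and 6530 detected genes in replicates 11 to 14, and replicate 15, with the low level, had 8907. In the OVX + E2 group, low gene detection and a high level of Gm10800 thus occurred in the same libraries, and their part in the difference from other groups was not tested. Over all 20 libraries Pearson's r of log2(CPM + 1) of Gm10800 was -0.81 with genes detected and -0.72 with the total (Spearman's rho -0.73 and -0.68), given as a description because the estradiol libraries chose the gene. For Gm10801 r was -0.59 and -0.54 (rho -0.51 and -0.58).

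The same relation was tested over the 15 libraries without estradiol. These include OVX + v, with 9381 to 9929 detected genes, the other side of the contrast that chose Gm10800. The part of that choice in the relation was not tested. With genes detected, Gm10800 had r = -0.63 (permutation p = 0.00995, adjusted p = 0.0398 over 4 relations) and rho = -0.48 (permutation p = 0.0730, adjusted p = 0.125). Without sham + v replicates 4 and 5, the libraries farthest from the median with 8507 and 8087 genes, r was -0.39 (permutation p = 0.185), so the relation did not hold without them. It also missed the adjusted threshold in all 15 libraries with TMM factors (r = -0.61, adjusted permutation p = 0.0605). With the values centred on their group r was -0.52 (permutation p = 0.0464, adjusted p = 0.0928). With the library total, r was -0.53 (permutation p = 0.0436, adjusted p = 0.0630) and rho -0.45 (permutation p = 0.0941), and r was -0.40 (permutation p = 0.174) without the 2 farthest libraries, OVX + v replicate 10 and OVX + RAL replicate 20. For Gm10801, r was -0.51 with the total (permutation p = 0.0473, adjusted p = 0.0630; rho -0.61, permutation p = 0.0189, adjusted p = 0.0756) and -0.36 with genes detected (permutation p = 0.189; rho -0.41, permutation p = 0.126). Without the same farthest libraries of each measure, the r of Gm10801 was -0.43 (permutation p = 0.139) and -0.48 (permutation p = 0.106). The direction was negative for both genes, and of these 4 relations only that of Gm10800 with genes detected passed the adjustment, by r and not by rho. Of the 14514 other genes that summed to 10 counts or more in these libraries, leaving out the satellite-like genes of chromosome 9, 0.703% had an r with genes detected as low as that of Gm10800 or lower, and 7.88% as low as that of Gm10801.

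Levels of the satellite-like genes of chromosome 9 were set beside those of the pair. Of 12 such genes listed, 9 were in the table, and each of the 9 had a best repeat shift of 234 bases, with 65.0% to 91.6% of bases equal. Their summed level was 347 ± 133, 93.1 ± 102, 149 ± 70.8 and 76.9 ± 41.8 CPM (SD, n = 5 each) in OVX + E2, OVX + RAL, sham + v and OVX + v, respectively, with 152 to 507 CPM in the OVX + E2 libraries and at most 120 CPM in those of OVX + v. These genes share windows with Gm10800, which was chosen for its level in OVX + E2, so these levels are a description. This order of groups put OVX + E2 first and sham + v second, as for Gm10800.

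Over the 15 libraries without estradiol, Gm10800 followed this sum with r = 0.82 (permutation p = 0.000130, adjusted p = 0.000260 over 2 relations, a comparison chosen after the data were seen) and rho = 0.90 (permutation p = 2.00e-05). Both were taken as log2(CPM + 1). Without OVX + v replicate 8 and OVX + RAL replicate 17, the farthest from the median of the sum on that scale, r was 0.85 (permutation p = 0.000370). It was 0.77 (permutation p = 0.00173) without sham + v replicate 5 and OVX + RAL replicate 16, the farthest in CPM, and 0.79 (permutation p = 0.000600) without OVX + RAL replicate 16 alone, and with values centred on their group it was 0.79 (permutation p = 0.000370). Gm10801 had r = 0.24 (permutation p = 0.384) and rho = 0.37 (permutation p = 0.173), and 0.32 (permutation p = 0.278) without OVX + v replicate 8 and OVX + RAL replicate 17. Gm10800 is the gene of the pair with more windows near those of chromosome 9. The difference between the relations and the part of reads shared between these loci were not tested.

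**Figure D5:**
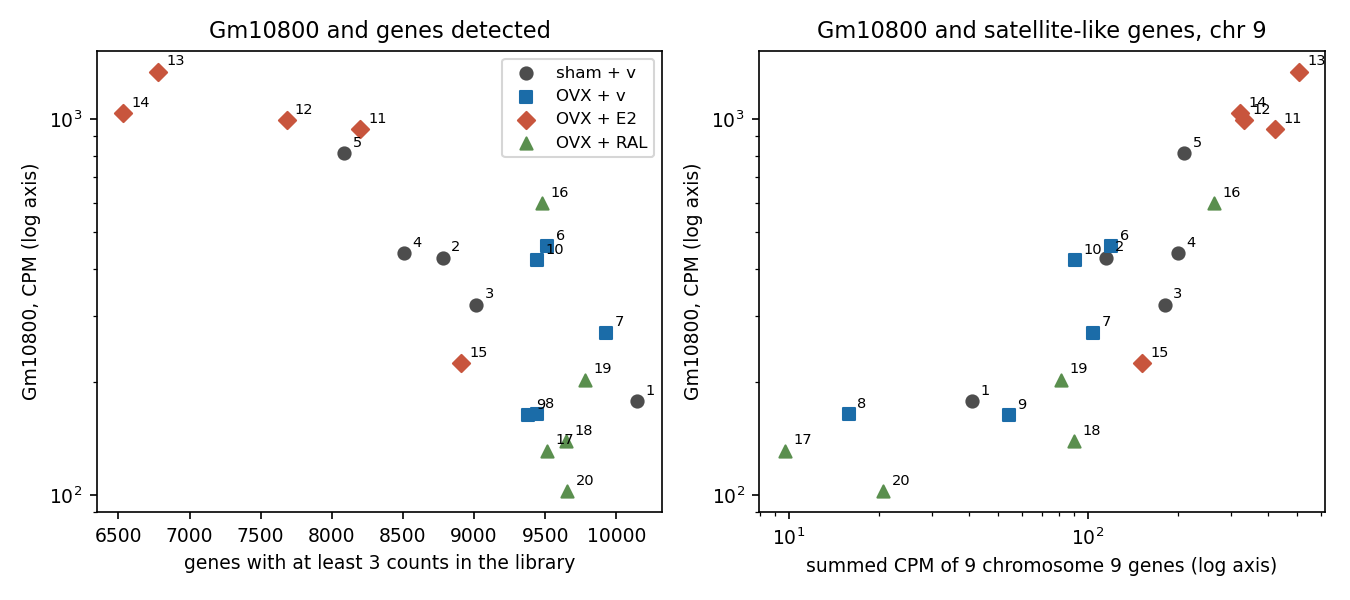
Level of Gm10800 in CPM (log axis) in each of the 20 libraries against the number of genes with at least 3 counts (left) and against the summed CPM of the 9 satellite-like genes of chromosome 9 (right, log axis), labelled by replicate. The 4 libraries of highest Gm10800, at 941 to 1336 CPM, are OVX + E2 libraries with 6530 to 8200 genes and 323 to 507 CPM of the chromosome 9 genes.

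Of single genes on chromosome 9, Gm10719 (chr9:3017408-3021593, plus strand) was the most like Gm10800 over the 20 libraries among 9533 genes of at least 10 CPM on average, with rho = 0.93. It had 157, 187, 138, 210 and 42.1 CPM in OVX + E2 replicates 11 to 15, and at most 90.5 CPM in any library of the other groups. Since it was picked for its likeness over these libraries, its low replicate 15 is no separate observation. Replicate 15 was also the lowest OVX + E2 library for Gm10717 and Gm10718, but the highest for Gm10720 (24.5 CPM), Gm10722 (20.3 CPM) and Gm11168 (26.7 CPM). The means of Gm10719 were 147 ± 64.7, 21.5 ± 39.0, 40.2 ± 24.9 and 21.6 ± 16.1 CPM (SD, n = 5 each) in OVX + E2, OVX + RAL, sham + v and OVX + v, respectively. Gm10717 was 13th in likeness (rho = 0.65), and Gm10718 was 106th (rho = 0.50).

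Gm10717 had 17.5 to 81.6 CPM in sham + v and 0 to 9.41 CPM in OVX + v, groups that did not overlap, which held for 0.203% of all genes with sham + v higher. Its log2 fold change of 3.97 (SE 1.45) had an adjusted p of 0.363 by edgeR. None of the 9 genes passed in the 3 tested comparisons, whereas 3 of 9 had an unadjusted p under 0.05 in sham + v against OVX + v and 1 of 9 in each of the others. In the first, 5 of 9 had higher and 4 lower fitted values in sham + v, and the 3 did not share a direction. They were Gm10717, Gm10721 (7.69, counts only in 2 sham + v libraries) and Gm17535 (-5.72, 30 counts in 1 OVX + v library only). Gm10721 was also the 1 in OVX + RAL against OVX + v, and Gm17535 the 1 in OVX + RAL against sham + v. Over all genes tested, 12.5% had an unadjusted p under 0.05 in sham + v against OVX + v, 12.1% in OVX + RAL against OVX + v and 12.96% in OVX + RAL against sham + v. With the default filter of edgeR, which drops genes of low counts, these shares were 1.65%, 1.83% and 1.75%, and the genes of the lists were not counted with that filter. In OVX + E2 against OVX + v, 6 of the 8 tested were higher, with a median log2 fold change of 2.13 against -0.06 over all genes. Of all 13695 genes, 6499 were higher. Gm10720 (3.56) and Gm11168 (4.53) had at most 2 counts in any OVX + v library and reached the count filter through OVX + E2. They raise both the number higher and the median, which are a description. The exact permutation p of the sum of the 9 genes was 0.190 for sham + v against OVX + v, 0.786 for OVX + RAL against OVX + v and 0.214 for OVX + RAL against sham + v (0.321 to 0.786 after adjustment over the 3 tests).

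Likeness was taken over all 20 libraries, including the estradiol libraries that chose Gm10800. The places are those of the highest of 9533 genes, so they are a description and carry no test. The other genes of highest likeness to Gm10800 were Polrmt, the RNA polymerase of mitochondria (rho = 0.75), Xkrx (0.75), Dse, an enzyme of dermatan sulfate synthesis (0.70), and Tmed1 (0.69). Gm10801 was at place 50 with rho = 0.56. The genes most like Gm10801 were Pdk2, a kinase that inhibits pyruvate dehydrogenase (rho = 0.78), Nbea (0.77), Inafm2 (0.76), Abcb4, a phospholipid transporter (0.72), and Chd7, a chromatin remodeller (0.68), and Gm10800 was at place 48. Between Gm10800 and Gm10801 r was 0.60 over the 20 libraries and 0.36 over the 15 without estradiol.

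Of 26 listed genes that build or read pericentromeric heterochromatin, such as the HP1 gene Cbx3, 24 were tested in each comparison without estradiol, 0 passed by edgeR and at most 1 had an unadjusted p under 0.05, against 12.1% to 12.96% of all genes. Of the 3 with most counts, Cbx3 had means of 308 ± 136, 256 ± 36.1, 272 ± 60.0 and 351 ± 42.3 CPM (SD, n = 5 each) in OVX + E2, OVX + RAL, sham + v and OVX + v, respectively. Cbx1, another HP1 gene, had 293 ± 97.9, 345 ± 103, 357 ± 97.2 and 326 ± 168 CPM. Atrx, a chromatin remodeller, had 436 ± 216, 208 ± 59.5, 279.98 ± 79.9 and 303 ± 49.4 CPM, and was thus highest in OVX + E2 and lowest in OVX + RAL, as Gm10800 was, with log2 fold changes of 0.53 (SE 0.336) for OVX + E2 against OVX + v and 1.06 (SE 0.378) against OVX + RAL. The median log2 fold change of the list in OVX + E2 against OVX + v was -0.09, against -0.06 over all genes, with 11 higher and 14 lower of 25.

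Markers of other cells were measured in the same libraries. Schwann cell genes, which make myelin, summed to 2277 to 4590 CPM in OVX + E2, with replicate 15 the lowest, against 1858 to 3338 CPM in OVX + v, 1916 to 2658 CPM in OVX + RAL and 1854 to 4228 CPM in sham + v. Blood and muscle genes summed to 3866 CPM in OVX + E2 replicate 15 and to at most 858 CPM in the other 4 libraries of that group. In OVX + RAL replicate 16, which stood apart for Gm10800, they summed to 3222 CPM, against 1052 to 1532 CPM in the rest of its group. The library with the low Gm10800 and the one with the high value thus both had high blood and muscle RNA, and the part of either cell type in the levels of Gm10800 was not tested. None of the 6 Schwann, 10 hair cell, 8 supporting cell and 10 blood and muscle genes passed by edgeR in the tested comparisons, and 0 to 3 of each list had an unadjusted p under 0.05, against 12.1% to 12.96% of all genes. In OVX + RAL against sham + v, the comparison in which Gm10800 passed only without OVX + RAL replicate 16, all 10 blood and muscle genes had higher fitted values, with a median log2 fold change of 0.94 against -0.02 over all genes and 3 of 10 at an unadjusted p under 0.05. There 9 of 10 hair cell genes had lower fitted values (median -0.49), with 1 of 10 at such a p. The part of these lists in the value of Gm10800 was not tested. Of 13 mitochondrial mRNAs, mt-Nd5 and mt-Nd6, subunits of respiratory complex I, were lower in OVX + RAL than in sham + v, with log2 fold changes of -0.90 (SE 0.171) and -0.97 (SE 0.185), both with an adjusted p of 0.000972 by edgeR, where 0.0648% of all genes passed. With the default filter of edgeR 0 genes passed in this comparison (159 at an unadjusted p under 0.05), and with the robust fit only 1 lower gene did.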

How the data were processed

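The utricles of 4 groups of 5 libraries were measured by sequencing the 3′ ends of mRNA from 1 ng of total RNA. As the paper's methods state, the authors trimmed the reads, cutting 12 nucleotides from their start and dropping those shorter than 20, and used CLC Genomics Workbench for alignment to GRCm39.105 at default settings and for counting. Its version is not given in the sources used here. The deposited counts are raw counts per gene. The deposited CPM, TPM and RPKM columns and the authors' fold changes and p-values were set aside. OVX + v libraries had identical counts in all tables.

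CPM was computed from library totals. Genes summing to 10 counts or more in the 10 libraries of a comparison were tested by edgeR 4.0.16 (glmQLFit and glmQLFTest, no TMM factors, R 4.3.3) with Benjamini-Hochberg adjustment at 0.05, after tests on simulated data. DESeq2 1.42.0, limma 3.58.1, TMM factors, other filters, the robust fit, all 20 libraries in 1 fit and each library left out were alternatives. Permutation tests and intervals used scipy 1.17.1, and correlations 100000 permutations. Of 40 replicate pairs within groups, 0 had identical counts. The members and gene lists were chosen with earlier results of these data known. Genes that could be named beyond the pair were the satellite-like genes, genes of the other lists past the threshold or among the 3 with most counts, the 5 genes most like each member, and the nearest genes with a count. The lists of ribosomal RNA-like and nuclear non-coding genes held 1 and 0 genes of the table and were not described.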

Additional observations from a re-analysis of the deposited data

Results flagged for a closer look

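In 28 groups of 5 libraries (7 measures in 4 groups), 3 had a highest or lowest library whose gap to the nearest other exceeded 0.71 of the group's range, where chance gives about 1.4. OVX + RAL replicate 16 had 598 CPM of Gm10800 and 626 CPM of Gm10800 and Gm10801 summed, each far above the other 4 libraries of its group. OVX + v replicate 7 had 9929 detected genes, above the 9381 to 9516 of its group. Levels were compared in CPM, and the calls on Gm10800 depend on that scale. The gap of OVX + RAL replicate 16 was 0.797 of the range for Gm10800 in CPM and 0.613 as log2(CPM + 1), whereas that of the low OVX + E2 replicate 15 was 0.644 in CPM and 0.803 as log2(CPM + 1). For the summed level these were 0.827 and 0.665 for OVX + RAL replicate 16, and 0.550 and 0.750 for OVX + E2 replicate 15.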

How the results depend on the processing

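The direction of Gm10800 was kept under all 18 alternatives in each of 6 comparisons. In those with OVX + E2, whose higher level chose the gene, the direction was largely given by that choice. The value of Gm10800 lay between 1.43 and 1.87 on the log2 scale for OVX + E2 against OVX + v and between 0.21 and 0.77 for sham + v against OVX + v. Leaving out 1 library gave -1.60 to -0.54 for Gm10800 and -1.50 to -0.54 for the sum in OVX + RAL against sham + v, past the threshold only without OVX + RAL replicate 16, and -0.39 to 0.20 for Gm10801 in sham + v against OVX + v, positive without sham + v replicate 1 or 4 or OVX + v replicate 6 or 10. The cause was not tested.

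The number of genes past the threshold depended on the tool. For sham + v against OVX + v it was 2, with TMM factors 1, with DESeq2 12, with limma on log2(CPM + 1) 4, and 0 with the default filter of edgeR, limma on log2(CPM + 0.1) or the robust fit (148 of 8956, 588 and 1709 genes at an unadjusted p under 0.05). For OVX + RAL against OVX + v it was 4, and 0 under the last 3 (171 of 9357, 630 and 1668 genes unadjusted). For OVX + RAL against sham + v it was 9, with DESeq2 17, with the robust fit 3, with limma on log2(CPM + 0.1) 1 and with the default filter of edgeR 0 (159 of 9067 genes unadjusted). For OVX + E2 against OVX + v it was 8, with DESeq2 38, with the robust fit 4, with limma on log2(CPM + 0.1) 3 and with the default filter 1. Leaving out 1 library gave 1 to 10, 3 to 11, 5 to 16 and 6 to 17 genes, respectively. The relation of Gm10800 with genes detected no longer passed with TMM factors (r = -0.61, adjusted permutation p = 0.0605), centred on groups (-0.52), with detection at 1 count (-0.57) or without the 2 farthest libraries (-0.39).

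With 5 libraries per group, the exact test could not go below 0.00794. No paired analysis was possible because the groups share no replicate numbers.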
